A study of Homo sapiens with 35 samples.

Results

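The genes described here add or read the acetyl mark on histones: the acetyltransferases KAT5, CREBBP, EP300, KAT2A, KAT2B, KAT6A and KAT7, and the acetyl readers BRD2 and BRD3. They were chosen by symbol, with earlier results of these data known. Every probe set annotated to exactly 1 of these 9 symbols was taken, which gave 17 probe sets of the 22930 on the array and 9 genes of the 11940 measured. The cells were BE(2)-C, a clonal neuroblastoma line with extra copies of MYCN, and no animals or donors entered the comparison. They received 1 mM valproic acid (VPA, a histone deacetylase inhibitor), 5 uM all-trans retinoic acid (ATRA, a ligand of the retinoic acid receptors), both agents together, or the vehicle DMSO, and were collected after 6 h, 24 h or 72 h. Each of the 12 groups held 3 arrays, except DMSO at 72 h with 2. The labels speak of triplicates and name no separate days or passages, so each p-value measures the spread between these samples, which may be technical.

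Histone acetyltransferases move an acetyl group from acetyl-CoA onto lysines of the histone tails, which loosens chromatin and makes docking sites for bromodomains, and histone deacetylases take the group off again. CREBBP and EP300 are closely related coactivators that many transcription factors bring to enhancers, KAT2A and KAT2B are the exchangeable catalytic subunits of the SAGA and ATAC complexes, and KAT5, KAT6A and KAT7 belong to the MYST family, each at the centre of a complex of its own. BRD2 and BRD3 are BET proteins, whose paired bromodomains hold them on acetylated histones at active genes. VPA raises histone acetylation by blocking the opposing enzymes, while the arrays measured here report only the transcripts of the genes.

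Values are intensity of a probe set on a linear scale, and changes are differences of log2 of the intensity plus 1, with their standard error (SE) from 1 limma fit over 19415 probe sets and all 12 groups. A gene is represented by its brightest probe set, and a change counts as called where the Benjamini-Hochberg adjusted p is under 0.05. Counts at an unadjusted p under 0.05 only describe the genes counted, as the share of all genes at that threshold was not computed. Arrays that do not overlap are likewise a description. The share of all genes without overlap is given for VPA against DMSO at 6 h and ATRA against DMSO at 72 h only. One array stood apart: DMSO 24 h replicate 1 had a median intensity of 43.6, where the others had medians of 53.1 to 58.9, and a residual SD of 0.234, where the others had 0.0827 to 0.171. Called changes at 24 h against DMSO, and those of DMSO over time to 24 h, are given with and without it. Lower quartiles were 20.8 to 23.6 across arrays, and values near them are not shown to be above background. Of 8 measured adrenergic neuroblastoma markers, 7 were above 4 times the lower quartile on 34 or 35 of the 35 arrays and HAND2 on 0, while 0 of 5 haematopoietic and 0 of 3 Schwann markers reached that level on any array. Of 8 mesenchymal markers VPA raised 1 at 6 h, 4 at 24 h and 6 at 72 h, with 0 lowered. Calls of VPA against DMSO in either direction covered 10.4%, 11% and 5.85% of all genes at these times. The 24 h marker count is given with all arrays only. The summed intensity of the 8 markers was 6367 to 7018 with VPA at 6 h, against 6207 to 6491 with DMSO. At 72 h it was 9716 to 10542 with VPA, against 6189 to 6236 with DMSO. With both agents the sum was 8751 to 9574 at 24 h, against 5523 to 6454 with DMSO, and 13029 to 13742 at 72 h. Of 5 epithelial markers, KRT19 was above 4 times the lower quartile on 27 arrays and KRT18 on 3, and their sum at 24 h was 464 to 646 with ATRA and 390 to 434 with both agents, against 156 to 207 with DMSO. Above 4 times the lower quartile were the mesenchymal markers FN1, VIM, SNAI2, TWIST1 and LUM on all 35 arrays. COL3A1 reached that level on 18 arrays and COL1A1 on 6, while PRRX1 was near background on every array. The part of all these markers in the results was not tested. The cultures were measured in bulk, so fewer cells of a type and less RNA per cell cannot be told apart.

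Within 6 h, VPA lowered 4 of the 9 transcripts and raised 0. KAT5, CREBBP, EP300 and KAT7 fell, between 1.32-fold and 2.13-fold, while the calls against DMSO at this time covered 10.4% of all 11940 genes in either direction and 4.33% in the lower direction. The median change of the 9 genes was -0.28 on the log2 scale, against 0.00 over all genes. Because the genes were chosen with earlier results of these data known, the shares describe them and are no test of the set. KAT5, the catalytic subunit of the TIP60 complex, which acetylates histone tails and the DNA damage kinase ATM, read 122, 132 and 140 on the VPA arrays at 6 h and 283, 275 and 283 on the DMSO arrays. The groups lay far apart, with every VPA array below every DMSO array. The change was -1.09 ± 0.18 (SE, adjusted p = 0.00014, limma), and the other 2 KAT5 probe sets fell by 0.89 and 0.85 on the log2 scale. All 3 KAT5 probe sets carry the array maker's mark for sets whose probes may also match other transcripts, so signal from a related transcript is not separated here. The brightest BRD2 set carries the same mark. Over all 19415 probe sets the calls of this comparison covered 8.9%.

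CREBBP, a coactivator that binds CREB and many other factors, read 473, 395 and 448 with VPA and 686, 593 and 654 with DMSO at 6 h. Again no VPA array reached a DMSO array, and the change was -0.55 ± 0.10 (adjusted p = 0.00030). Its relative EP300 read 229, 279 and 277 with VPA and 313, 384 and 344 with DMSO, with a change of -0.41 ± 0.09 (adjusted p = 0.0037). KAT7, which acetylates histones near replication origins within the HBO1 complex, read 282, 316 and 277 with VPA and 421, 434 and 469 with DMSO, a change of -0.60 ± 0.13 (adjusted p = 0.0032). For both genes the VPA arrays lay below the DMSO arrays. For CREBBP and EP300 the second probe set did not pass the test. That of CREBBP lay at background on all arrays, between 17.1 and 26.6, and that of EP300 differed by -0.43 with an adjusted p of 0.11. These 4 calls against DMSO at 6 h were kept under each of 11 other settings and with any 1 of the 35 arrays left out.

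**Figure D1:**
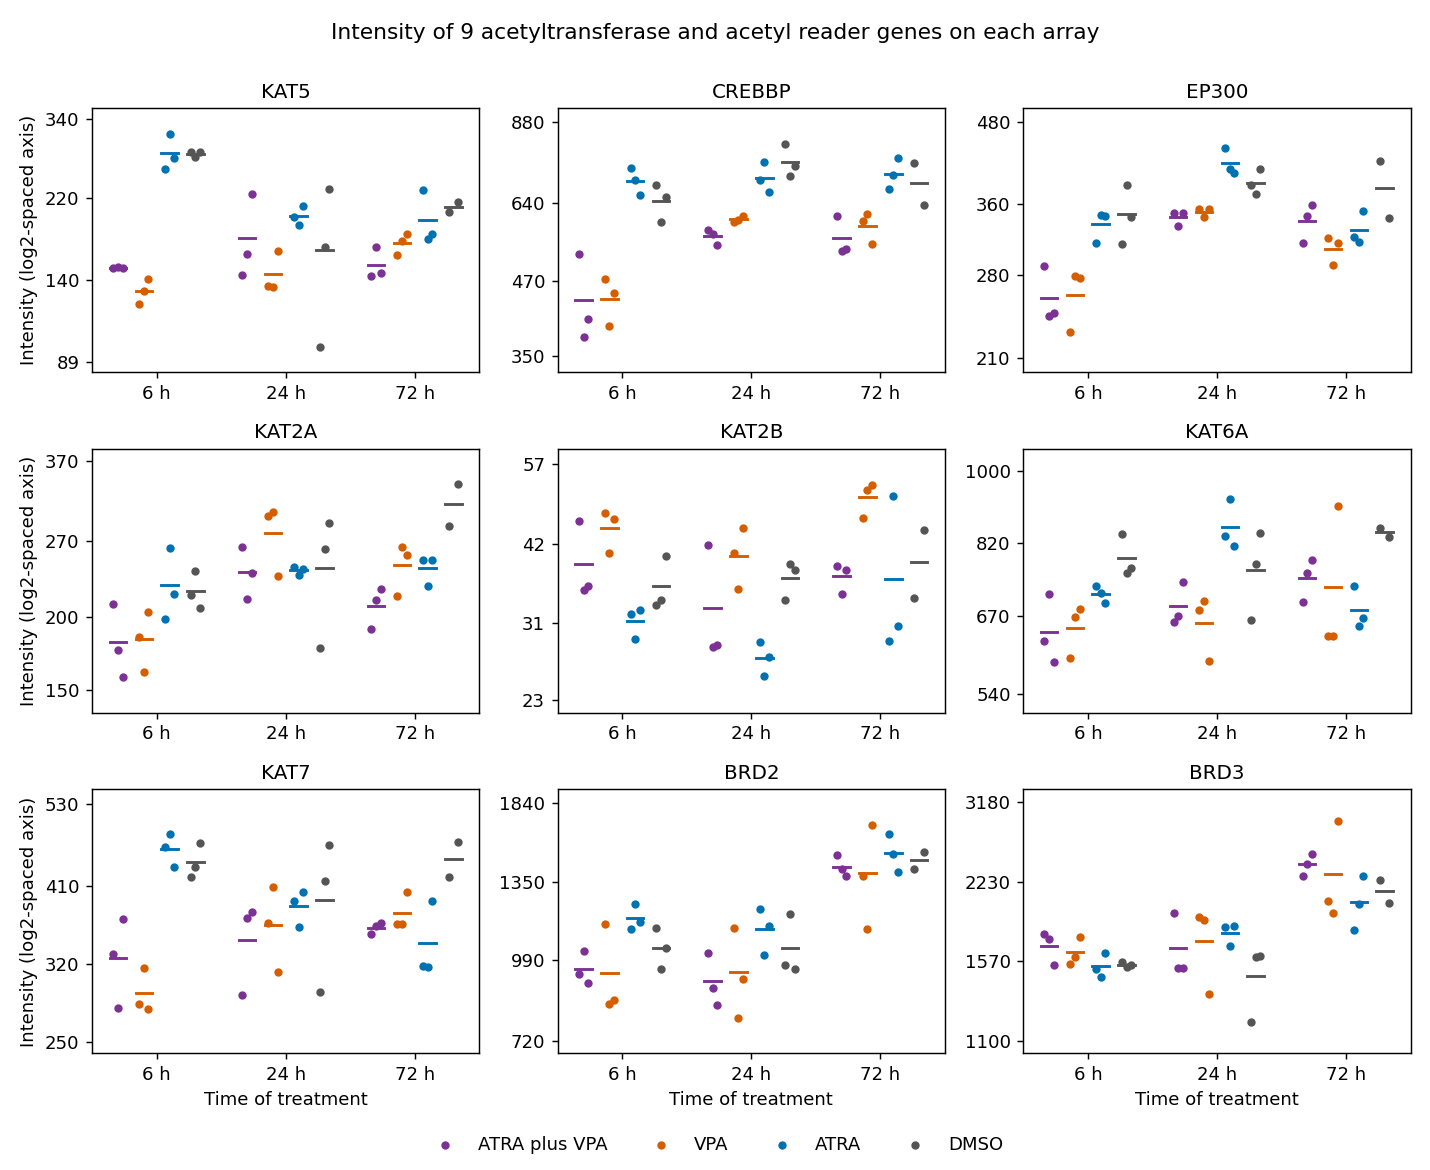
Intensity of the brightest probe set of each gene on every array (vertical axis, spaced by log2), by time and treatment, with a bar at the group mean. At 6 h KAT5, CREBBP, EP300 and KAT7 lay lower on all 6 arrays with VPA (orange and purple) than on all 6 arrays without it (blue and grey), and BRD2 and BRD3 were higher at 72 h than at 6 h in DMSO.

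The start-site regions of the 4 genes that fell together at 6 h are shown because they are the sequences from which these transcripts begin. They run from 250 bases before to 50 bases after the start, 5' to 3' on the gene's strand, from RefSeq on GRCh38.p14, and 8 of the 9 genes were matched by symbol in that table, KAT6A not. The regions are chr11:65712002-65712301 on the plus strand for KAT5, chr16:3880664-3880963 on the minus strand for CREBBP (the first of its 2 entries), chr22:41092342-41092641 on the plus strand for EP300 and chr17:49788431-49788730 on the plus strand for KAT7. Capitals mark matches of CACGTG, the E-box bound by MYC family proteins, or of GGGCGG, the GC box bound by SP factors, on either strand.
KAT5: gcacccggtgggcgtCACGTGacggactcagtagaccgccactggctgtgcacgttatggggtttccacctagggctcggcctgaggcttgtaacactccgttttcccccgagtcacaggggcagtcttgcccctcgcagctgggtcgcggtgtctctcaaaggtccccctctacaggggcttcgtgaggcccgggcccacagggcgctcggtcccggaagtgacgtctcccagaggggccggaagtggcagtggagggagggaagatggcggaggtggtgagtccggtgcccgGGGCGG
CREBBP: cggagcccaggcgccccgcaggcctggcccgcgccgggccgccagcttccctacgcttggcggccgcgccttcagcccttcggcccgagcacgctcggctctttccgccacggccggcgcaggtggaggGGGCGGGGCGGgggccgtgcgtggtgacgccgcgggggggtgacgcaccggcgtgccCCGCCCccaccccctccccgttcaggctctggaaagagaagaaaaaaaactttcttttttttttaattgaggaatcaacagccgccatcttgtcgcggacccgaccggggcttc
EP300: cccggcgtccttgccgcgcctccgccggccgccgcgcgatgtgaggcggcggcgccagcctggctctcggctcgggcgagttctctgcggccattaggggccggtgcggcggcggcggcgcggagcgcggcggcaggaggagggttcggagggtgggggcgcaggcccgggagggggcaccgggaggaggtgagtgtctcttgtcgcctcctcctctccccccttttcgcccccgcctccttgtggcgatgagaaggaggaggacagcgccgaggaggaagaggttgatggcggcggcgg
KAT7: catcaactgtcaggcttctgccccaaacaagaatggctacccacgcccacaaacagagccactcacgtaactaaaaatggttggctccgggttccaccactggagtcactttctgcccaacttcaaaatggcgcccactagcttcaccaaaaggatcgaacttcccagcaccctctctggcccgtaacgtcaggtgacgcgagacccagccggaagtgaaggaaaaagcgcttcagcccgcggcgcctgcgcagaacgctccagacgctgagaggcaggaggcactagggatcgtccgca
The KAT5 region holds CACGTG once, 235 bases before the start, and GGGCGG once, at base 45 after it, while the CREBBP region holds GGGCGG at 3 places, of which 2 overlap, and the other 2 regions hold neither. Over all 35116 promoters of the same length, 7.3% hold CACGTG and 45% hold GGGCGG. The retinoic acid receptor half-site AGGTCA, found in 13.8% of all promoters, and the CREB site TGACGTCA, found in 1.8%, are in none of the 4 regions. GC content was 67.3% for KAT5, 70.3% for CREBBP, 75.3% for EP300 and 57.7% for KAT7, and the median of all promoters was 58.7%. No motif was shared by all 4 regions, and a match of letters is no evidence of binding.

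The other 5 genes did not pass the test with VPA at 6 h. KAT6A (MOZ), an acetyltransferase of blood stem cells and of body patterning, read 596, 667 and 682 with VPA and 840, 753 and 764 with DMSO, groups that did not overlap, with a change of -0.28 ± 0.11 and an adjusted p of 0.13. KAT2A differed by -0.28 (adjusted p = 0.29) and KAT2B by 0.32 (adjusted p = 0.26), with a mean of 183 with VPA and 222 with DMSO for KAT2A and of 44.7 with VPA and 35.7 with DMSO for KAT2B. Counting the 4 called genes, 7 of the 9 had VPA and DMSO arrays that did not overlap, 6 lower and 1 higher, where 30% of all genes did not overlap and 14.2% of all genes did so in the lower direction. The BET readers did not pass either: BRD2 differed by -0.16 (95% interval -0.44 to 0.12) and BRD3 by 0.08 (interval -0.21 to 0.36).

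The fall at 6 h was also measured on a separate set of arrays, where VPA was added to ATRA and compared with ATRA alone. The same 4 genes fell and 0 of the 9 rose, beside calls on 11% of all genes. KAT5 read 150, 150 and 149 with both agents and 258, 314 and 275 with ATRA, a change of -0.91 ± 0.18 (adjusted p = 0.0011). CREBBP read 524, 378 and 406 with both agents and 733, 700.5 and 660 with ATRA, a change of -0.69 ± 0.10 (adjusted p = 1.7e-05). No array with both agents reached an ATRA array for either gene. EP300 changed by -0.37 ± 0.09 (adjusted p = 0.0070) and KAT7, at 326 ± 45.5 with both agents and 461 ± 24.3 with ATRA (SD, n = 3 each), by -0.51 ± 0.13 (adjusted p = 0.012). The KAT7 call was lost without ATRA 6 h replicate 2 or ATRA plus VPA 6 h replicate 2 (adjusted p = 0.062 and 0.098), and the EP300 call in a fit of these 2 groups alone (adjusted p = 0.054). Between the combination and VPA alone there were 0 calls of 9 at 6 h, beside 0.544% of all genes, with changes from -0.20 for KAT2B to 0.19 for KAT5. There were also 0 at 24 h and at 72 h, beside 10.7% and 24.4%, and KAT2B at 72 h came nearest (-0.43, adjusted p = 0.051). At an unadjusted p under 0.05, 0 passed at 6 h, 0 at 24 h and 1 at 72 h.

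**Figure D2:**
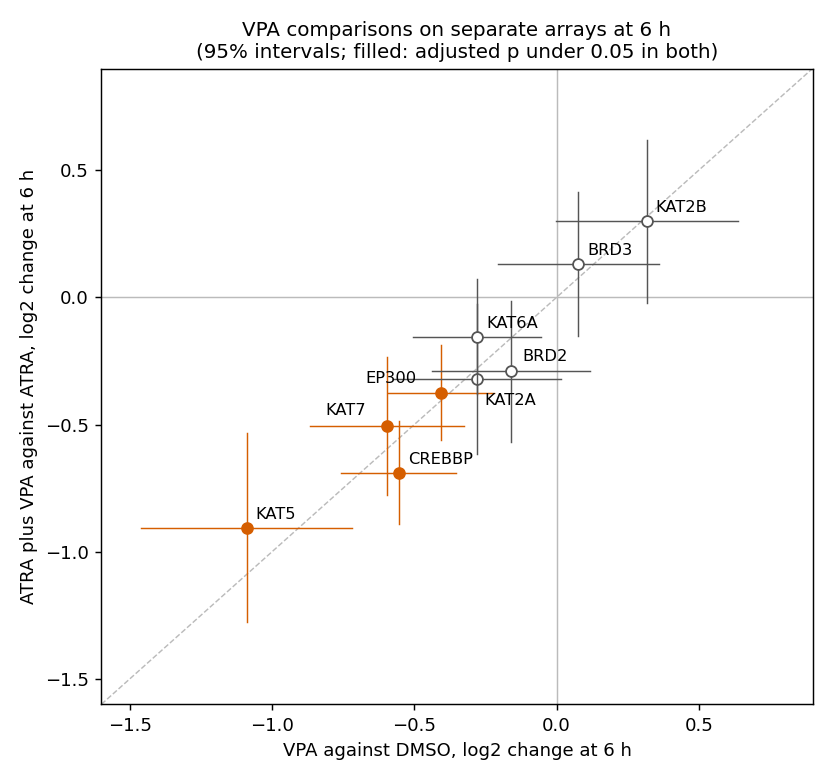
Log2 change at 6 h of VPA against DMSO (horizontal axis) and of ATRA plus VPA against ATRA (vertical axis) for the 9 genes, with 95% intervals; the dashed line marks equal changes. The 2 comparisons use different arrays, and KAT5, CREBBP, EP300 and KAT7 (filled) were called lower in both.

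Set against DMSO, the combination at 6 h gave the same 4 calls, beside 10.8% of all genes: KAT5 by -0.90, CREBBP by -0.57, EP300 by -0.42 and KAT7 by -0.44 (adjusted p = 0.030). This comparison shares its DMSO arrays with that of VPA. The KAT7 call was lost in a fit of these 2 groups alone (adjusted p = 0.056) and without any 1 of 5 arrays of these groups, all but ATRA plus VPA 6 h replicate 3 (adjusted p from 0.056 to 0.20), and the EP300 call was lost in the fit of 2 groups (adjusted p = 0.058). The interaction, which is the change with both agents minus the sum of the 2 single changes, was called for 0 of the 9 genes at any time, beside 0% of all genes at 6 h, 0.586% at 24 h and 1.42% at 72 h. At 6 h its estimates for the 9 genes lay between -0.13 for CREBBP and 0.18 for KAT5, and the interval for KAT5 ran from -0.34 to 0.71. At an unadjusted p under 0.05 the interaction passed for 0 of the 9 genes at 6 h and 24 h and for 2 at 72 h, where EP300 differed by 0.34 and KAT6A by 0.37.

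By 24 h the fall was limited to CREBBP among the called genes. CREBBP read 593, 597 and 607 with VPA and 806, 712 and 739 with DMSO, and every VPA array lay below every DMSO array. The change was -0.33 ± 0.10 (adjusted p = 0.034), the sole call of 9 beside 11% of all genes, and without DMSO 24 h replicate 1 it was -0.27 with an adjusted p of 0.12. It was also lost without any 1 of the 3 VPA arrays (adjusted p from 0.060), in the fit of 2 groups (0.22), with the mean of its probe sets (0.10), after a second quantile normalization (0.066) and with array weights (0.0504), each given as an adjusted p. For EP300 the VPA effect at 24 h minus that at 6 h was 0.26 (adjusted p = 0.41) and for KAT7 0.50 (adjusted p = 0.22), or 0.25 and 0.30 without DMSO 24 h replicate 1 (adjusted p = 0.50 for each), so a difference between the times was not shown for these genes. With both agents CREBBP read 574, 566 and 542, a change against DMSO of -0.42 ± 0.10 (adjusted p = 0.0028), and without DMSO 24 h replicate 1 a change of -0.37 (adjusted p = 0.020). In the fit of 2 groups it was lost (adjusted p = 0.066). That was the sole call of 9 beside 19.8% of all genes, and without DMSO 24 h replicate 1 KAT7 passed too (-0.36, adjusted p = 0.0497). Against ATRA the combination changed CREBBP by -0.33 ± 0.10 (adjusted p = 0.038), again the sole call, beside 8.29% of all genes, and it was lost without any 1 of the 6 arrays compared (adjusted p from 0.056 to 0.14), and in the fit of 2 groups, with the mean of its probe sets and after a second quantile normalization (adjusted p = 0.083, 0.17 and 0.19).

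At 72 h, VPA alone gave 0 calls of 9, beside 5.85% of all genes, and 4 genes passed at an unadjusted p under 0.05. The changes against DMSO were below 0 for 7 of the 9 genes, from -0.35 for KAT2A to -0.09 for BRD2. KAT2B differed by 0.36 and BRD3 by 0.08. The median change over all genes was -0.02, and all 9 changes share the same 2 DMSO arrays. With both agents CREBBP read 607, 530 and 534 at 72 h and 748 and 633 with DMSO, a change of -0.31 ± 0.11 (adjusted p = 0.039), and against ATRA the change was -0.37 ± 0.10 (adjusted p = 0.010). KAT2A, the SAGA enzyme also known as GCN5, read 191, 214 and 224 with both agents and 287 and 338 with DMSO. These groups did not overlap, as was so in the lower direction for 31.2% of all genes with ATRA against the same DMSO arrays. The change was -0.57 ± 0.16 (adjusted p = 0.0073). It rests on 2 DMSO arrays and was lost without DMSO 72 h replicate 2 (adjusted p = 0.14). CREBBP and KAT2A were the 2 calls of 9 for the combination against DMSO at 72 h, beside 30.4% of all genes, and CREBBP the 1 call against ATRA, beside 19.3%. KAT5 was not called, but read 143 to 168 with both agents and 204 to 214 with DMSO, a difference of -0.46. It passed in the fit of 2 groups (adjusted p = 0.012), with the replicate block (0.046) and with the mean of its probe sets (0.039). A second quantile normalization (-0.49, adjusted p = 0.021) and array weights (-0.43, adjusted p = 0.0090) also let KAT5 pass. The CREBBP call against DMSO was lost in the fit of 2 groups and after a second quantile normalization (adjusted p = 0.081 and 0.17), and without DMSO 72 h replicate 1 or ATRA plus VPA 72 h replicate 2 or 3 (adjusted p from 0.11 to 0.43). That against ATRA was lost without ATRA plus VPA 72 h replicate 3 (adjusted p = 0.051). With the mean of the CREBBP probe sets, 1 of which is at background, both calls were lost, at -0.13 against DMSO (adjusted p = 0.37) and -0.13 against ATRA (adjusted p = 0.31).

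**Figure D3:**
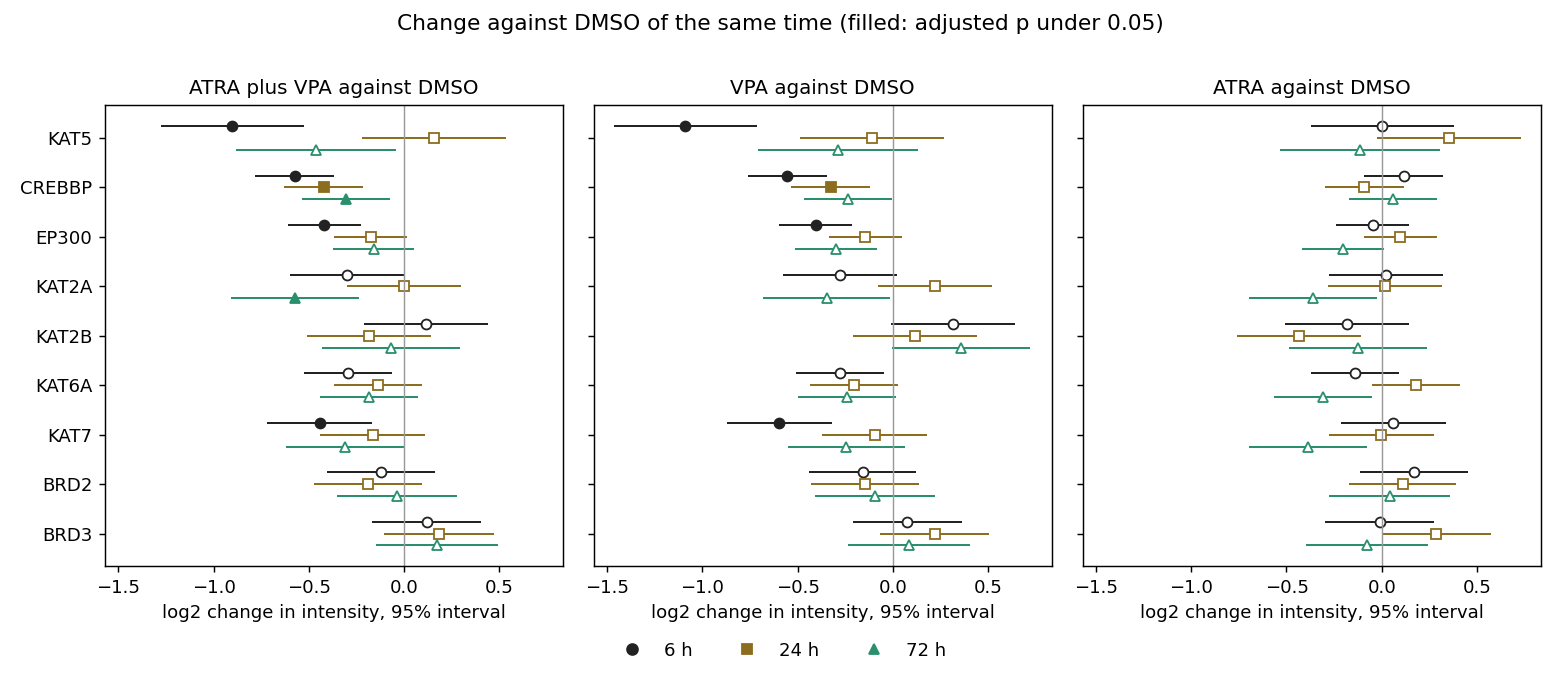
Log2 change against DMSO of the same time (horizontal axis, with 95% intervals) for the 9 genes under VPA, ATRA and both, at 6 h, 24 h and 72 h. Filled symbols passed the test: 4 genes with VPA and with both agents at 6 h, CREBBP with either at 24 h, CREBBP and KAT2A with both at 72 h, and 0 with ATRA.

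ATRA alone changed 0 of the 9 genes by this test at any time, although it changed 1.37% of all genes at 6 h, 17.2% at 24 h and 29.6% at 72 h. At an unadjusted p under 0.05, 0 of the 9 passed at 6 h, 2 at 24 h and 3 at 72 h. Every called gene also passes there, so at least 17.2% of all genes did at 24 h and 29.6% at 72 h. The nearest to the threshold was KAT7 at 72 h, which read 318, 317 and 390 with ATRA and 421 and 470 with DMSO, a difference of -0.39 ± 0.15 (adjusted p = 0.052). KAT6A at 72 h differed by -0.31 (adjusted p = 0.062), KAT2A by -0.36 (adjusted p = 0.099) and KAT2B at 24 h by -0.43 (adjusted p = 0.062). All 3 genes named at 72 h had ATRA arrays below both DMSO arrays, where 31.2% of all genes did, and 19.6% of all genes were called lower. KAT7 passed under 6 other settings, with an adjusted p of 0.027 with the replicate block, and without DMSO 24 h replicate 1 KAT7, KAT6A and KAT2A all passed. KAT5 at 24 h passed without DMSO 24 h replicate 3 (0.64, adjusted p = 0.0067), in place of 0.35 with all arrays (adjusted p = 0.21), and without DMSO 24 h replicate 1 the difference was 0.01 (adjusted p = 0.98). For CREBBP at 72 h the 95% interval of the ATRA change ran from -0.17 to 0.29, and for KAT5 from -0.53 to 0.30.

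VPA and ATRA were also compared directly. At 6 h, VPA against ATRA gave 5 calls of 9, beside 14.7% of all genes: KAT5 (-1.09), CREBBP (-0.67), EP300 (-0.36) and KAT7 (-0.66) were lower and KAT2B was higher. The EP300 call was lost without VPA 6 h replicate 1 (adjusted p = 0.079). KAT2B, also known as PCAF and first described as a partner of EP300 and CREBBP, read 47.3, 40.5 and 46.2 with VPA and 32.04, 29.1 and 32.5 with ATRA at 6 h, a change of 0.50 ± 0.16 (adjusted p = 0.031). At 24 h it read 40.5, 35.2 and 44.5 with VPA and 28.8, 25.2 and 27.2 with ATRA, a change of 0.55 ± 0.16 (adjusted p = 0.011). The VPA arrays lay above the ATRA arrays at both times, yet the 6 h call was lost without any 1 of 5 of its 6 arrays, all but VPA 6 h replicate 2 (adjusted p from 0.058 to 0.13), and the 24 h call without VPA 24 h replicate 3 (adjusted p = 0.060). At 72 h the change was 0.48 (adjusted p = 0.021), but 1 ATRA array, at 50.5, lay among the VPA arrays, which read 46.4, 51.6 and 52.6, and the call was lost without VPA replicate 2 or 3 or ATRA replicate 1 or 3 of that time (adjusted p from 0.062 to 0.16). KAT2B is dim, at 25.2 to 52.6 over all arrays, so its folds depend on the background, and it did not pass against DMSO with either agent alone. KAT6A at 24 h read 681, 698 and 592 with VPA and 834, 924 and 812 with ATRA, a change of -0.38 ± 0.11 (adjusted p = 0.011), and with KAT2B it made 2 calls of 9 beside 25% of all genes. The KAT6A call was lost without VPA 24 h replicate 3 or ATRA 24 h replicate 2 (adjusted p = 0.074 and 0.054), and without DMSO 24 h replicate 1, which enters the shared spread, KAT5 passed too (-0.46, adjusted p = 0.0084). KAT5 also passed in the fit of 2 groups (adjusted p = 0.018) and with the mean of its probe sets (0.027). It passed as well after a second quantile normalization (0.041) and with array weights (0.0061). EP300 did not pass, at -0.24, but did with the mean of its sets (-0.41, adjusted p = 0.0019). Of the 17 probe sets, 5 were called lower and 1 higher, beside 22.3% of probe sets. At 72 h CREBBP (-0.30, adjusted p = 0.025) and KAT2B were called, beside 30.6%, and the CREBBP call was lost without VPA 72 h replicate 3 or ATRA 72 h replicate 2 or 3 (adjusted p from 0.054 to 0.12). The 3'/5' ratio of control probe sets, a sign of RNA and labelling quality, averaged 1.09 ± 0.16 with VPA and 1.82 ± 0.17 with ATRA at 72 h on the log2 scale (SD, n = 3 each). With it held constant neither call passed, at -0.20 for CREBBP (adjusted p = 0.25) and 0.49 for KAT2B (adjusted p = 0.065). In the fit of 2 groups the adjusted p was 0.060 for CREBBP and 0.088 for KAT2B, and CREBBP averaged over its probe sets was at -0.10 (adjusted p = 0.42).

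In DMSO alone the genes also moved with time. KAT5 read 96.6, 168 and 231 at 24 h and 283, 275 and 283 at 6 h, a change of -0.85 ± 0.18 (adjusted p = 0.0022) and the sole call of 9 at 24 h, beside 15.7% of all genes. The lowest of these readings is DMSO 24 h replicate 1, and without it the change was -0.51 (adjusted p = 0.034). The fit of 2 groups alone gave an adjusted p of 0.14, and a fit that held the 3'/5' ratio of each array constant gave a change of -0.62 (adjusted p = 0.14). That ratio, taken from the GAPDH and ACTB controls, averaged 1.05 ± 0.26 on the log2 scale in DMSO at 24 h and 0.27 ± 0.09 at 6 h (SD, n = 3 each), and its part in the time course was not tested beyond this covariate. On its brightest set KAT5 was high on the 6 arrays of ATRA and DMSO at 6 h, from 258 to 314, and lower on all 29 others, from 96.6 to 231. The other sets overlapped: 209192_x_at started at 154 with ATRA at 6 h and reached 196 with DMSO at 24 h. For 206689_x_at the lowest ATRA array at 6 h read 168, and ATRA at 24 h reached 190. In DMSO these sets averaged 194 and 187 at 6 h and 147 and 139 at 24 h. At 6 h the ratio averaged 0.44 ± 0.06 with VPA, 0.39 ± 0.45 with both agents, 0.20 ± 0.07 with ATRA and 0.27 ± 0.09 with DMSO, and with it held constant the 4 calls of VPA against DMSO at 6 h stood.

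Between 6 h and 72 h in DMSO, 3 of the 9 genes rose and 0 fell, beside 10.9% of all genes called. BRD2 read 1421 and 1518 at 72 h and 1123, 957 and 1039 at 6 h, a change of 0.50 ± 0.15 (adjusted p = 0.028). BRD3 read 2254 and 2028 at 72 h and 1564, 1529 and 1540 at 6 h, a change of 0.47 ± 0.15 (adjusted p = 0.044). KAT2A changed by 0.49 ± 0.16 (adjusted p = 0.044). With the replicate block KAT2A was lost (0.49, adjusted p = 0.054). BRD2 was lost when its probe sets were averaged (0.21, adjusted p = 0.27), where 208686_s_at differed by -0.29 (adjusted p = 0.38). The later arrays lay above all 6 h ones for each of these genes, with only 2 arrays at 72 h. BRD2 was at 1120 to 1690 on all arrays of the 4 treatments at 72 h and at 788 to 1237 on all earlier ones. All 3 calls were lost when the 3'/5' ratio was held constant (adjusted p of 0.052 for BRD2, 0.34 for BRD3 and 0.27 for KAT2A). They were also lost without either DMSO array of 72 h, and without 2 other arrays for BRD2, 6 for KAT2A and 7 for BRD3, with an adjusted p from 0.0501 to 0.33 over all of these.

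The effect of treatment on KAT5 passed a test of the difference between times, but not under every setting. The VPA effect at 24 h minus that at 6 h was 0.98 ± 0.26 (adjusted p = 0.048), and for the combination it was 1.06 ± 0.26 (adjusted p = 0.013), each the sole call of 9, beside 1.83% and 5.32% of all genes. Each was also the sole call among the 17 probe sets, so the other KAT5 sets did not pass. Both rest on the same DMSO arrays, in which KAT5 was lower at 24 h. The VPA difference was lost without any 1 of 31 of the 35 arrays, at 0.64 (adjusted p = 0.11) without DMSO 24 h replicate 1. That of the combination was 0.72 (adjusted p = 0.032) without the same array and was lost without ATRA plus VPA 24 h replicate 3 (adjusted p = 0.056). In the fit of only the groups compared the adjusted p was 0.30 for VPA and 0.22 for the combination. KAT5 read 135, 134 and 164 with VPA at 24 h, below DMSO replicates 2 and 3 at 168 and 231 and above replicate 1 at 96.6. For VPA at 72 h minus 6 h, for the combination at 72 h minus 6 h and for ATRA at both later times there were 0 calls of 9. Those comparisons called 1.86% of all genes for VPA, 15.9% for the combination, and 5.49% at 24 h and 16.2% at 72 h for ATRA, and 2, 0, 1 and 1 of the 9 genes passed at an unadjusted p under 0.05.

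Probe sets of a gene did not always move together. The 3 KAT5 sets correlated at 0.80 to 0.82 over the 35 arrays, which share treatments and are no independent points. BRD2 had 2 sets that correlated at 0.91 and another, 208686_s_at, that correlated with them at 0.08 and -0.12. At 6 h that set read 406, 527 and 487 with both agents and 688, 666 and 734 with ATRA, a change of -0.56 ± 0.17 (adjusted p = 0.038), beside calls on 9.25% of probe sets, and the brightest set differed by -0.29 (adjusted p = 0.23). At 24 h it read 365, 283 and 285 with VPA and 544, 483 and 634 with ATRA, a change of -0.83 ± 0.17 (adjusted p = 0.00063), beside 22.3% of probe sets. In neither comparison did the arrays of this set overlap. Against DMSO it was called once among treatments, higher with ATRA at 24 h (0.54, adjusted p = 0.035, beside 14.8% of probe sets), with overlapping arrays that include DMSO 24 h replicate 1 at 237. Without that array the ATRA difference was 0.20 (adjusted p = 0.46), and the VPA change at 24 h was -0.64 (adjusted p = 0.0026), in place of -0.30 (adjusted p = 0.32). In DMSO it was lower at 24 h than at 6 h (-0.81, adjusted p = 0.0021, beside 17.7% of probe sets), with a change of -0.48 without DMSO 24 h replicate 1 (adjusted p = 0.031), while the brightest BRD2 set did not pass (adjusted p = 0.99). Whether the sets report different BRD2 transcripts was not tested. For EP300 the 2 sets correlated at 0.18, for KAT6A at 0.28 and for BRD3 at 0.58.

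**Figure D4:**
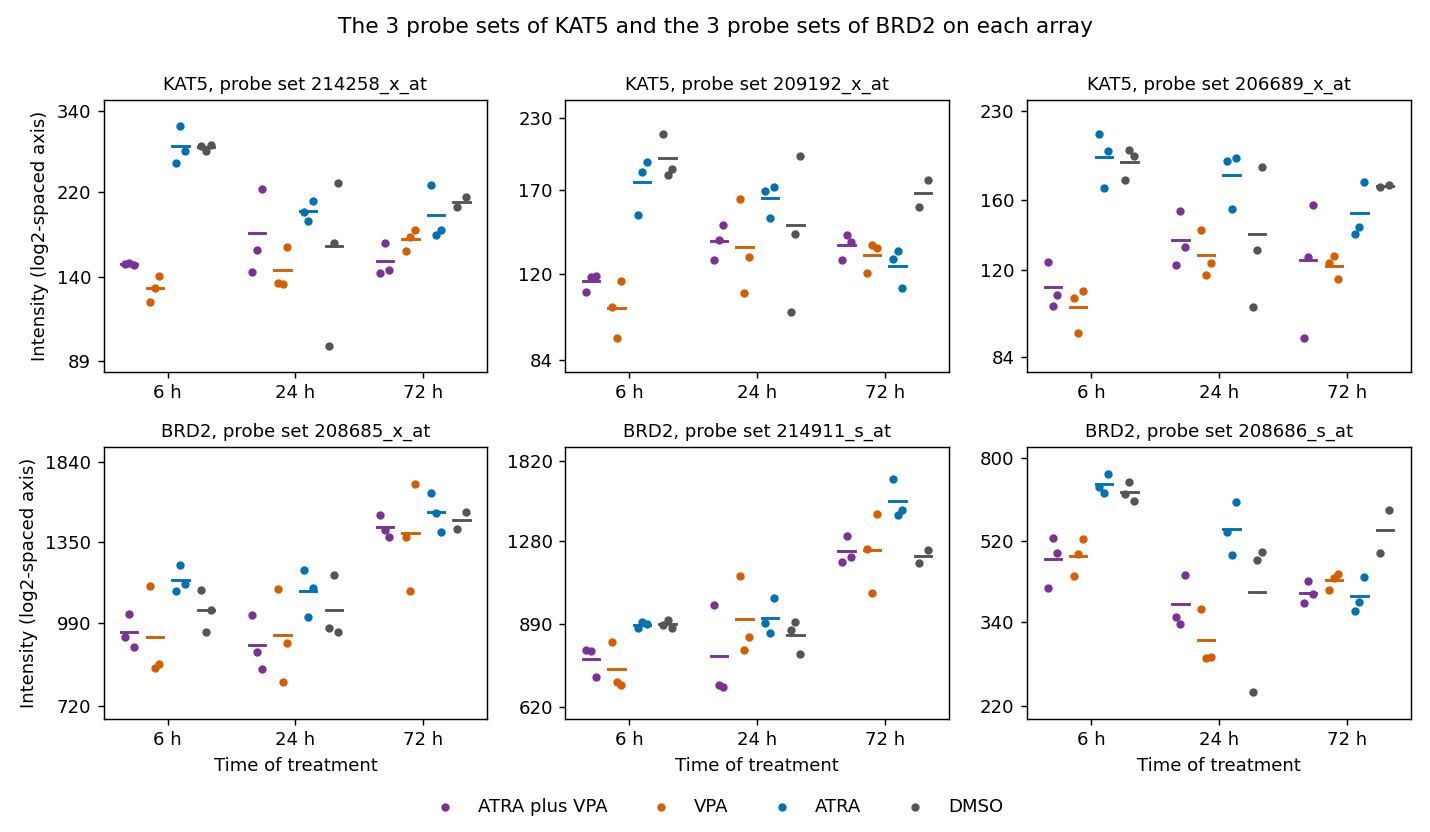
Intensity on every array (vertical axis, spaced by log2) of the 3 probe sets of KAT5 (top) and of BRD2 (bottom), by time and treatment, with a bar at the group mean. All 3 KAT5 sets were lower with VPA and with both agents at 6 h than with ATRA or DMSO, and BRD2 set 208686_s_at followed another course than the other BRD2 sets.

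Over the 12 group means, CREBBP and EP300 correlated at 0.86, KAT5 and KAT7 at 0.83 and BRD2 and BRD3 at 0.80, while KAT2B correlated negatively with the 6 other acetyltransferases, from -0.58 with EP300 to -0.08 with KAT2A, and at 0.10 with BRD2 and 0.33 with BRD3. These are descriptions over means that share arrays. The spread of group means was widest for KAT5, 2.13-fold, and narrowest for KAT6A, 1.34-fold. Among genes above the lowest 33.3% by mean value and on none of the lists, the patterns most like KAT5 were those of SCAMP2 (Pearson r = 0.95), SMG9 (0.92) and KCTD15 (0.91). Most like CREBBP were ZFX (0.96), DOLPP1 (0.94) and FAM216A (0.93), most like EP300 were DMAC2, ZNF668 and MPHOSPH10, and most like KAT7 were SRSF11 (0.94), RBM39 (0.90) and COQ7 (0.89). KAT2A was nearest to PKP1, PDCD11 and ARHGAP4, KAT2B to RETREG1, STC1 and PODXL, and KAT6A to CERS2, OTUB1 and POLR3D, with r from 0.88 to 0.96. BRD2 was nearest to RHBDD3, ZNF292 and H2AC6, and BRD3 to RABGAP1, ATP6V1G2 and H1-2, with r from 0.91 to 0.95.

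Genes that work with these enzymes were followed in lists, read against the shares of all genes given above. Of 9 other acetyltransferases measured, 1 fell and 0 rose with VPA at 6 h, and that was KAT6B, the paralogue of KAT6A, at 87.3 with VPA and 157 with DMSO (-0.84 ± 0.09, adjusted p = 2.0e-07). KAT6B stayed lower with VPA at 24 h (-0.55) and 72 h (-0.47), but rose with ATRA by 0.88 at 6 h, 0.75 at 24 h and 1.02 at 72 h, where it averaged 475 with ATRA and 234 with DMSO. With both agents it rose at 24 h (0.54) and 72 h (0.83). Without DMSO 24 h replicate 1 the 24 h changes of KAT6B were -0.53 with VPA, 0.77 with ATRA and 0.56 with both, and all passed. HAT1, which acetylates newly made histones, fell with ATRA at 72 h (-0.70). In that comparison 5 of these 9 other acetyltransferases fell and 2 rose, beside 29.6% of all genes called.

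Partners in the complexes of the 9 genes fell with VPA at 6 h in part. Of 18 SAGA and ATAC partners 4 fell and 0 rose, among them TAF6L, a SAGA scaffold (-1.30, 31.3 with VPA and 78.7 with DMSO), and SGF29, which reads methylated histone (-0.87). Of 15 TIP60 complex partners 3 fell and 0 rose, including ING3 (-0.62) and the acetyl reader YEATS4 (-0.43). Of 6 MOZ, MORF and HBO1 partners limma called 0 at 6 h, and 2 passed at an unadjusted p under 0.05. List medians were -0.08 for SAGA and ATAC, -0.13 for TIP60 and -0.08 for MOZ, MORF and HBO1, against 0.00 for all genes. Of 6 genes of P-TEFb and its inhibitors, the kinase that BET proteins help to bring to genes, 3 fell, among them MEPCE (-1.08, 204 with VPA and 432 with DMSO) and LARP7 (-0.42), which both stabilise the small RNA that holds P-TEFb inactive. Of 33 other genes listed for a bromodomain or for reading acetyl-lysine, here called the readers, 6 fell and 0 rose. ZMYND8 was at -0.50 and ZMYND11, listed for its bromodomain, at -0.49. YEATS4 is on this list as well as on that of TIP60 partners and counts in both.

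With ATRA at 72 h, 6 of 15 TIP60 partners fell, including the ATPases RUVBL1 (-0.95) and RUVBL2 (-0.86). Among the readers 9 of 33 fell (27.3%), including ATAD2 (-1.09), while 0 of either list rose. YEATS4 (-0.73) is on both lists and counts in each. All genes called lower in this comparison made up 19.6%, so the share of readers was near the background. JADE1, a scaffold of the HBO1 complex, fell at 24 h (-0.84) and 72 h (-1.01), and JADE2 rose at 24 h (0.59). Without DMSO 24 h replicate 1 these 24 h changes were -0.84 and 0.51, and both passed. Of 8 genes of acetyl-CoA metabolism, which make or use it, 7 fell at 72 h and 0 rose, with a list median of -0.52 against 0.00 for all genes. They included the citrate carrier SLC25A1, at 152 with ATRA and 301 with DMSO, and ACAT2 (-0.63). In the same comparison ATRA called 0 of the 9 genes described here. The 3'/5' ratio averaged 1.82 ± 0.17 with ATRA at 72 h (SD, n = 3) and 1.06 ± 0.17 with DMSO (SD, n = 2), and the summed adrenergic markers read 14628 to 15449 with ATRA and 23928 to 23985 with DMSO. With the ratio held constant, 4 of 15 TIP60 partners, 6 of 33 readers, 3 of 9 other acetyltransferases and 6 of 8 acetyl-CoA genes fell, beside 15.4% of all genes. ATAD2 was then at -0.66 (adjusted p = 0.0015) and SLC25A1 at -0.62 (adjusted p = 0.039). The part of the marker sums in these changes was not tested.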

How the data were processed

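Total RNA of BE(2)-C cells was labelled with biotin through oligo-dT priming and measured on 35 Affymetrix arrays. The deposited values are intensity per probe set on a linear scale, which the authors made with RMA, per the submitters' processing notes; its version and any step back from the log scale are not given in the sources used here. Values were transformed as log2(intensity + 1). Of 22930 probe sets, 19415 with exactly 1 gene symbol were fitted with limma 3.58.1 in R 4.3.3 (lmFit, eBayes, 1 mean per group, 29 contrasts), with Benjamini-Hochberg adjustment over all of them within each contrast. A gene is its brightest probe set. Probe sets with several symbols (125) or none (3292) and 98 control sets were left out. Symbols come from the platform annotation, and 19290 matched RefSeq.

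The members and lists were chosen with earlier results of these data known. Beside the 9 genes and their probe sets, the text names at most the 2 most changed called genes of a list per comparison with DMSO, and the 3 genes with the most similar group means. The fit was tested on simulated data. The number of arrays and the signal over background limit the precision. Alternatives tried were blocking on the replicate number, fitting just the groups compared, filters, pseudocounts, probe set summaries, a second normalization, array weights, a 3'/5' covariate and leaving out each array.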

Additional observations from a re-analysis of the deposited data

Results flagged for a closer look

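The difference of a treatment effect between times was tested directly for KAT5, and on its brightest probe set it passed for both treatments that contain VPA. That set was the sole 1 of 17 probe sets called in each, so the other KAT5 sets did not pass. The VPA effect on KAT5 at 24 h minus that at 6 h was 0.98 ± 0.26 on the log2 scale, and the effect of both agents at 24 h minus that at 6 h was 1.06 ± 0.26. Both use the same 6 DMSO arrays, and in DMSO KAT5 was lower at 24 h than at 6 h. Without DMSO 24 h replicate 1 the VPA difference was 0.64 (adjusted p = 0.11, limma) and that of both agents 0.72 (adjusted p = 0.032). The VPA call was lost in 31 of the 35 fits that left out 1 array, that of both agents in 1, without ATRA plus VPA 24 h replicate 3, and in a fit of only the groups compared neither passed (adjusted p = 0.30 and 0.22).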

How the results depend on the processing

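Of 33 changes called for the 9 genes, 16 passed under all 11 other settings and 15 with any 1 of the 35 arrays left out. Calls lost were mostly those of CREBBP after 6 h, KAT2B and the DMSO time course. With the array left out varied, the number of calls ran from 4 to 6 for VPA against DMSO, 0 to 3 for ATRA against DMSO, 6 to 9 for both agents against DMSO, 5 to 7 for both against ATRA, 0 to 1 for both against VPA, 7 to 11 for VPA against ATRA, 0 to 0 for the interaction, 1 to 2 for effects over time and 1 to 5 for DMSO over time. ATRA against DMSO had 0 calls and had 1 with the replicate block, a pseudocount of 32, the brightest probe set fitted alone or the second normalization, 2 with the mean of a gene's probe sets, 3 without the lowest 33.3% of probe sets and 4 with array weights. Both agents against VPA had 0 calls and 1 in the fit of 2 groups, without the lowest 33.3%, with the pseudocount of 32, the brightest set alone, the mean of sets or the second normalization, and 3 with array weights. Array weights also gave 12 calls in place of 7 for both agents against DMSO, 10 in place of 6 for both against ATRA and 8 in place of 2 for effects over time. The 3'/5' covariate gave 0 in place of 4 for DMSO over time. EP300 in DMSO at 24 h against 6 h was -0.16 (adjusted p = 0.29) with the mean of its sets, in place of 0.16. The causes were not tested.

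Residuals of same-numbered arrays correlated between -0.329 and 0.513, and of 66, 66 and 55 pairs 14, 8 and 17 exceeded 0.1. The medians were 0.0010, -0.023 and 0.0011 for replicates 1, 2 and 3. Arrays with different numbers were not compared, so whether the numbers pair the arrays was not settled. The replicate block gave 5 calls for VPA against DMSO, 8 for both agents against DMSO and 3 for DMSO over time. Over all probe sets the second normalization moved the share of higher calls at 24 h to 64.2% from 78.3% with VPA, to 49.5% from 69.8% with ATRA and to 49.6% from 64.6% with both, and for both against ATRA at 72 h to 53.5% from 68.9%. Where an array of DMSO at 72 h was left out, the remaining one was assumed to vary like the other groups. DMSO at 72 h with 2 arrays and dim sets, such as KAT2B, limit the rest.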

Other observations

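The enzymes that remove the acetyl mark moved on their own courses. HDAC9, a class IIa deacetylase, fell with both agents at 6 h to 147, against 421 in DMSO (-1.53 ± 0.11, adjusted p = 3.0e-10, limma), and with each agent alone (-0.72 with VPA, -0.83 with ATRA). At 72 h it was higher with VPA, at 558 against 358 in DMSO (0.63, adjusted p = 0.0013), and lower with both agents (-0.42). HDAC1, a catalytic subunit of several corepressor complexes, rose with VPA at 24 h (0.41, adjusted p = 0.011, but 0.32 with an adjusted p of 0.072 without DMSO 24 h replicate 1, limma) and fell with ATRA at 72 h (-0.86), where 4 of 8 measured deacetylases fell and 0 rose, beside 19.6% of all genes called lower, and likewise 4 with the 3'/5' ratio held constant. HDAC5 fell at 72 h with VPA (-0.70) and with ATRA (-0.88).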
